A study of Mus musculus with 10 samples.

Results

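The 10 genes described here are Yap1 and Wwtr1, the second of which encodes TAZ, the 4 TEAD genes Tead1, Tead2, Tead3 and Tead4, the kinase genes Lats1 and Lats2, and the target genes Ankrd1 and Amotl2. They were taken by symbol from 18384 genes listed in the mRNA-seq data, with earlier results of these data known, and all 10 passed the filter on low counts that left 14009 genes for testing. The libraries came from adipocyte precursors (APs) of mouse subcutaneous white adipose tissue, the cells that give rise to fat cells, kept in culture as a control (3 libraries, replicates 1 to 3) or with the type 2 cytokine IL-4 (3 libraries, replicates 4 to 6). According to the methods of the study, the APs were depleted of CD45-positive and CD31-positive cells and then selected for SCA-1, both groups grew in serum-containing medium, IL-4 was added the day after seeding, and the cells were harvested on day 4. The study names C57BL/6 J mice as the source of the APs. No dose of IL-4 and no age of the animals was given in the sources used here, and both groups carried no genetic change that the labels name.

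YAP and TAZ are transcriptional coactivators that do not bind DNA themselves and reach their target genes through the TEAD factors. In the Hippo pathway, the MST kinases activate LATS1 and LATS2, which phosphorylate YAP and TAZ and keep them out of the nucleus. Spread cells on stiff surfaces tend to hold YAP and TAZ in the nucleus, and in mesenchymal progenitors TAZ is known to restrain adipogenesis and to favour the osteogenic fate. Activity of the pathway is set largely by phosphorylation, which mRNA levels do not measure.

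Ankrd1 and Amotl2 serve as readouts of YAP and TAZ activity, and their promoters are shown because TEAD factors act through the letters GGAATG. The promoter windows are from RefSeq (build GRCm38.p6, 250 bases before to 50 bases after a transcription start), written 5′ to 3′ on the strand of the gene, with GGAATG or its reverse complement CATTCC in capitals. Ankrd1 lies at chr19:36119795-36120094 on the minus strand, and Amotl2 at chr9:102717554-102717853 on the plus strand.
Ankrd1: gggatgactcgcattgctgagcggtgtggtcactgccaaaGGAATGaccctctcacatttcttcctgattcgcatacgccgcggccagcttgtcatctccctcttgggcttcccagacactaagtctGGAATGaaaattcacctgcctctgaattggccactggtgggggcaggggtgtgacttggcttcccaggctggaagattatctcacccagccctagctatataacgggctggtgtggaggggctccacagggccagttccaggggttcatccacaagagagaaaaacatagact
Amotl2: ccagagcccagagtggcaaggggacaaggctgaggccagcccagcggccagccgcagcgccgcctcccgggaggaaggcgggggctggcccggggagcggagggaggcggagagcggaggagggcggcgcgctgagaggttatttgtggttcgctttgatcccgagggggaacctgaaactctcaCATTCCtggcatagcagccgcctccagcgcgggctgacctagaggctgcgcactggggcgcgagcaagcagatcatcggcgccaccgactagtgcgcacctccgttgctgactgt
In Ankrd1, which encodes a stress-responsive ankyrin repeat protein, the motif began 210 and 123 bases upstream of the start, both times on the strand of the gene. In Amotl2, which encodes an angiomotin family protein that binds YAP, it was found 65 bases upstream on the opposite strand, and there it belonged to the 7-letter form GGAATGT.

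Promoter windows were held for 8 of the 10 genes, which leaves out Tead1 and Tead4. GGAATG on either strand was present in the windows of 6 of these 8 genes (Yap1, Wwtr1, Tead3, Lats2, Ankrd1 and Amotl2), against 16.6% of 27025 genes with a window. A gene was counted if any of its windows held the motif. The 8 genes had 12 windows, some of them overlapping, and 8 of these held GGAATG, against 14.7% of 32851 windows of all genes. The longer GGAATGT, which contains the shorter motif, was present in Yap1, Tead3 and Amotl2, against 4.47% of genes. The letters TTC and GAA with 4 bases of any kind between them, a form bound by STAT factors, which act downstream of the IL-4 receptor, were in none of the 8 genes and in 8.01% of all genes with a window. These are matches of letters, and binding was not measured.

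The study concerned miRNAs of the H19X locus, a cluster on the X chromosome. Their mature sequences from RefSeq are shown because they are the basis for the site counts below, with the seed, bases 2 to 8, in capitals.
miR-322-5p: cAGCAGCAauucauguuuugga
miR-503-5p: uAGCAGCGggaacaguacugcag
miR-351-5p: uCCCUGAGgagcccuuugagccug
miR-542-3p: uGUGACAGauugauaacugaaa
miR-450a-5p: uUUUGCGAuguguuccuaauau
miR-450b-5p: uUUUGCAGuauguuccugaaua
No seed of 7 bases was shared between the 6 miRNAs, and bases 2 to 7 were the same in miR-503-5p as in miR-322-5p. Sites complementary to the seeds occurred in the longest RefSeq 3′ UTR of 7 of the 10 genes, 19 sites in all, against 46.5% of 13371 tested genes with a 3′ UTR. For each of these genes 1 site with its neighbouring bases is shown in the DNA letters of the transcript strand (GRCm38.p6), with the match to the seed in capitals.
Yap1, site for miR-503-5p at chr9:7934330-7934358 (minus strand): tctctgcccgtCGCTGCTcttacgttggt
Wwtr1, site for miR-542-3p at chr3:57458256-57458284 (minus strand): aacttcaacatCTGTCACaattcttgcat
Tead1, site for miR-542-3p at chr7:112899742-112899770 (plus strand): ccagaatgtcaCTGTCACaagcttcctgg
Tead4, site for miR-322-5p at chr6:128227970-128227998 (minus strand): cctcacactccTGCTGCTggtcaccctag
Lats1, site for miR-322-5p at chr10:7713659-7713687 (plus strand): attggtattaaTGCTGCTtccagtttttg
Lats2, site for miR-542-3p at chr14:57690235-57690263 (minus strand): atgagaggtgtCTGTCACatctcaatgtg
Amotl2, site for miR-322-5p at chr9:102733349-102733377 (plus strand): tgtaccaggatTGCTGCTgcattccgcca
Lats1 held the most sites, namely 4 for miR-322-5p of which 2 overlap, 2 for miR-542-3p and 1 for miR-503-5p, in a 3′ UTR of 3451 bases. Tead1, whose 3′ UTR of 8124 bases was the longest of the 10, held 2 sites for miR-542-3p and 1 for miR-322-5p. Tead2, Tead3 and Ankrd1 had no site of this kind, and their 3′ UTRs measured 540, 1049 and 742 bases. The median over all tested genes was 1077 bases. The 3′ UTRs of the 7 genes with a site measured 1223 to 8124 bases, all above this median, and the share of 46.5% was not matched for length. Of the 6 genes that were lower with IL-4 (below) 4 held a site, and of the other 4 genes 3 held one.

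The 6 libraries held 28526782 to 29057787 expected counts, that is, reads assigned to genes by RSEM, and the expected counts of all 10 genes were whole numbers. All 12 AP markers were detected in every library, although Dpp4 and Pi16 were low in control, at means of 43.8 and 46.5 normalized counts. Of the 12, 8 were higher with IL-4, against 19% of all tested genes, while Pdgfrb and Lum were lower. Adiponectin (Adipoq) and Plin1, markers of mature fat cells, were at 0 in control replicates 1 and 2 and at no more than 13.9 normalized counts elsewhere, and Cidec and Lep were listed in no library. The other 3 markers of fat cells were expressed, and of these Fabp4 (log2 fold change 1.10) and Plin4 (1.77) were higher and Lipe (-0.32) lower with IL-4. Macrophage markers were abundant despite the depletion of CD45-positive cells. Their summed level over 18 genes was 160369 to 201478 normalized counts in control and 98473 to 113256 with IL-4. Lyz2 made the largest part of this fall, with means of 73406 in control and 23481 with IL-4. Of the 18 genes, 15 were lower, 2 higher (Mrc1 and Cd53) and none at 0. Mrc1 went from a mean of 13340 in control to 23469 with IL-4. Of 8 endothelial markers, Cdh5, Tie1 and Emcn were lower and Vwf and Tek higher, with a median log2 fold change of -0.30. Their sum, 1513 to 1642 normalized counts in control and 2492 to 3133 with IL-4, was driven up by Vwf (3.08). The part of these cells in the values below was not tested, and in such bulk libraries fewer cells of a type and less RNA per cell cannot be told apart.

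IL-4 replicate 6 stood apart from the other IL-4 libraries, and control replicate 3 did so to a lesser degree. The chi-square of the counts per degree of freedom was 2.49 between IL-4 replicates 4 and 5 but 45.8 and 36.7 between replicate 6 and these, and it was 3.77 between control replicates 1 and 2 but 10.7 and 16.8 between replicate 3 and these. No pair differed by as little as sampling noise. Both libraries held fewer reads of long transcripts. For 1319 genes of at least 6000 bases the median log2 ratio to the other libraries of the group was -0.40 in IL-4 replicate 6 and -0.19 in control replicate 3, and for 3106 genes under 2000 bases it was 0.26 and 0.13. Results for the 10 genes are therefore given with and without these 2 libraries. As the 2 were chosen by their divergence in these data, the libraries left differ less within each group. More genes then passed, with 25.1% of tested genes lower against 18.4% in all 6 libraries. A lower adjusted p in that setting is thus no added evidence for a gene. The design names the libraries biological replicates, and no source used here says how many animals gave the cells.

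At an adjusted p under 0.05, 6 of the 10 genes were lower with IL-4 and 0 were higher (quasi-likelihood test of edgeR, adjusted after Benjamini and Hochberg across all tested genes). The 6 were Wwtr1, Tead1, Tead2, Tead4, Ankrd1 and Amotl2. Over all tested genes, 18.4% were lower and 19% higher by the same rule. In the same libraries 15 of the 18 macrophage markers were lower. Beyond a log2 fold change of -1, the threshold of the study, lay only Tead4, against 5.26% of tested genes. The median log2 fold change of the 10 genes was -0.32, beside 0.0026 for all tested genes. Normalized counts of the groups did not overlap for 7 of the 10, each time with the IL-4 libraries lower, against 25.3% of tested genes. On the FPKM scale, which is per transcript length and library size, the IL-4 libraries lay under all control libraries for all 10 genes, against 43% of tested genes.

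**Figure D1:**
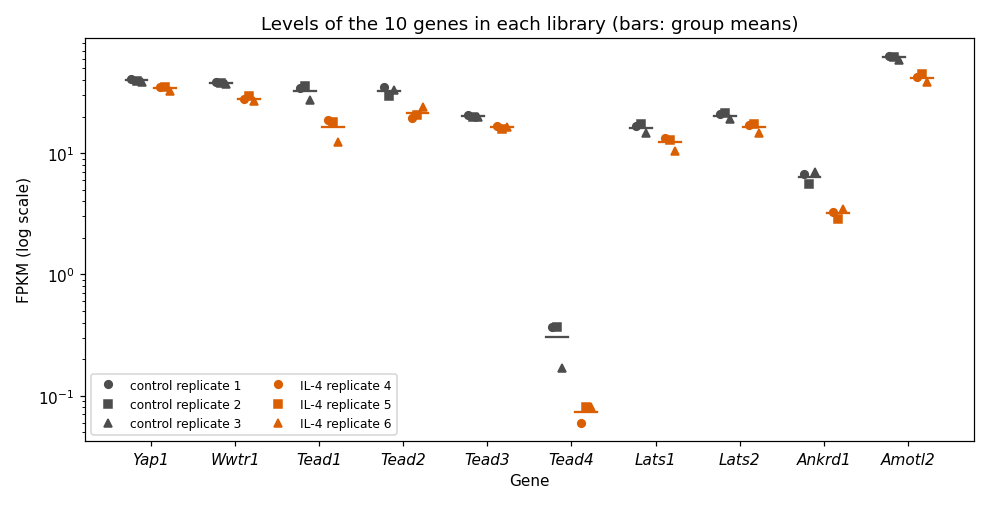
FPKM of the 10 genes on a log axis in each of the 6 libraries, with control in grey, IL-4 in orange and bars at the group means. The orange points lie under the grey points of the same gene for all 10 genes, and Tead4 lies far under the others, at 0.37 FPKM or less.

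The number of the 10 genes that passed depended on the scaling. Scaled to library totals, or by limma on log2(FPKM + 1) or log2(FPKM + 0.1), all 10 were lower at an adjusted p under 0.05, as were 35.4%, 35.1% and 35% of all tested genes. These scalings moved the median log2 fold change of all tested genes to -0.17, -0.13 and -0.17. With TMM, which sets the bulk of genes level between libraries, the log2 fold changes given next are relative to the typical gene. The FPKM values given next are not scaled in this way.

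Yap1 (chr9:7931999-8004638, coordinates of RefSeq on GRCm38.p6 here and for the other genes) and Wwtr1 (chr3:57455644-57575910) were both well expressed. Yap1 stood at 40.9, 39.6 and 38.8 FPKM in control replicates 1 to 3 and at 34.9, 34.7 and 32.7 FPKM in IL-4 replicates 4 to 6. In TMM-normalized counts it stood at 4567, 4461 and 4286 in control and 4442, 4417 and 4035 with IL-4, and these groups overlapped. The log2 fold change of Yap1 was -0.05 ± 0.06 (SE), with a 95% confidence interval of -0.19 to 0.10 and an adjusted p of 0.597 in edgeR. Without IL-4 replicate 6 it was 0.0021, and without both diverging libraries -0.03.

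Wwtr1 was lower. It stood at 38.8, 38.1 and 36.9 FPKM in control and at 28.2, 29.6 and 26.7 FPKM with IL-4, and its normalized counts were 4959, 4904 and 4668 against 4094, 4299 and 3771. Every IL-4 library was under every control library on both scales. The log2 fold change of Wwtr1 was -0.26 ± 0.07 (SE, edgeR adjusted p = 0.0166), or 83.7% of the control level. The call was lost without control replicate 1 (-0.24, edgeR adjusted p = 0.0731) and without control replicate 2 (-0.25, edgeR adjusted p = 0.0650). Without both diverging libraries it was -0.23 and passed (edgeR adjusted p = 0.000254). That setting was chosen from these data, and 25.1% of all tested genes were lower in it, against 18.4% in the main fit.

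The balance of the coactivators can be read within each library, where the scaling between libraries cancels. Yap1 made up 51.3%, 51.0% and 51.2% of the summed FPKM of Yap1 and Wwtr1 in control and 55.4%, 54.0% and 55.0% with IL-4. The share was 51.2% ± 0.16 (SD, n = 3) in control and 54.8% ± 0.71 (SD, n = 3) with IL-4, with no overlap, and the exact two-sided permutation test gave p = 0.1, the smallest that 3 libraries against 3 can give (0.175 after Benjamini-Hochberg adjustment over 7 such measures). In FPKM, Yap1 and Wwtr1 held neighbouring ranks among the 10 genes in both groups. Their library ranges overlapped in control and not with IL-4.

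The TEAD factors carry the DNA-binding domain of the complex. Tead1 (chr7:112679356-112906784) was at 34.3, 35.6 and 27.5 FPKM in control and at 18.9, 17.9 and 12.4 FPKM with IL-4. Its normalized counts were 8909, 9352 and 7038 against 5613, 5308 and 3529. In each group the diverging library was the lowest, and the groups did not overlap. The log2 fold change of Tead1 was -0.81 ± 0.18 (SE, edgeR adjusted p = 0.00863). It was -0.62 without IL-4 replicate 6 and -0.74 without both diverging libraries, and the call held in each case.

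Tead2 (chr7:45215792-45233468) was lower too. It stood at 35.0, 29.4 and 33.3 FPKM in control and at 19.6, 20.7 and 24.0 FPKM with IL-4, and its normalized counts were 1947, 1649 and 1837 against 1240, 1310 and 1480. Unlike Tead1, Tead2 was highest in IL-4 replicate 6 among the IL-4 libraries. Its log2 fold change was -0.43 ± 0.09 (SE, edgeR adjusted p = 0.00652), and -0.50 without both diverging libraries.

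Tead3 (chr17:28331671-28350805) stood at 20.6, 19.9 and 19.7 FPKM in control and at 16.8, 15.7 and 16.3 FPKM with IL-4. Its normalized counts, 1403, 1368 and 1336 against 1299, 1229 and 1208, did not overlap between groups, yet the log2 fold change of -0.14 ± 0.06 (SE) did not pass in edgeR (adjusted p = 0.111). Without both diverging libraries it was -0.13 (adjusted p = 0.0520).

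Tead4 (chr6:128227143-128300813) was barely expressed. It had 31, 32 and 14 reads in control and 5, 7 and 7 reads with IL-4, which is 0.37, 0.37 and 0.17 FPKM against 0.06, 0.08 and 0.08 FPKM. The groups did not overlap, and the log2 fold change was -1.85 ± 0.42 (SE, edgeR adjusted p = 0.00954) with a 95% confidence interval of -2.82 to -0.88. Control replicate 3 held the fewest Tead4 reads of the control libraries, and without both diverging libraries the log2 fold change was -2.21. On the log2(FPKM + 1) and log2(FPKM + 0.1) scales of limma, which understate changes of low genes, it was -0.28 and -1.17.

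Summed over the 4 genes, TEAD mRNA was 90.3, 85.2 and 80.7 FPKM in control and 55.3, 54.4 and 52.8 FPKM with IL-4. FPKM also places the typical tested gene lower with IL-4 (median log2 fold change -0.13 on log2(FPKM + 1) and -0.17 on log2(FPKM + 0.1)). No TMM-scaled total was computed. The means were 85.4 ± 4.77 and 54.2 ± 1.28 (SD, n = 3 each), with p = 0.1 in the exact permutation test (0.175 adjusted). Tead3 took 23.5% ± 0.85 of the sum in control and 30.1% ± 0.98 with IL-4 (SD, n = 3 each), with no overlap (exact permutation p = 0.1, 0.175 adjusted). Tead1 took 38.0%, 41.8% and 34.1% in control and 34.1%, 32.9% and 23.5% with IL-4. These shares overlapped (exact permutation p = 0.2, 0.233 adjusted), and the difference of -7.78 percentage points was -4.43 without IL-4 replicate 6. Tead2 took 38.2% ± 3.43 and 39.6% ± 5.29 (SD, n = 3 each), with exact permutation p = 0.7, and this difference of 1.45 percentage points became -1.50 without IL-4 replicate 6. Tead4 never took more than 0.434%. In control, Tead2 and Tead1 were the most abundant TEAD genes per length and their ranges overlapped, while with IL-4 Tead2 ranked above Tead1 and Tead3, whose ranges overlapped.

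**Figure D2:**
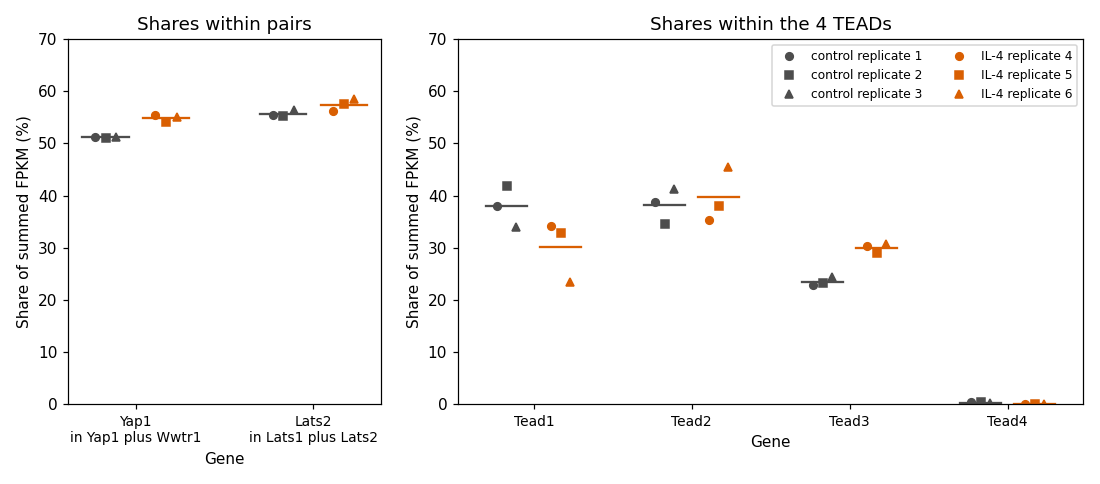
Shares of summed FPKM in each library, in percent, with control in grey, IL-4 in orange and bars at the group means; the left panel shows Yap1 within Yap1 plus Wwtr1 and Lats2 within Lats1 plus Lats2, the right panel each TEAD within the 4 TEADs. The orange points of Yap1 (54.0% to 55.4%) and of Tead3 (28.9% to 30.8%) lie above their grey points, while those of Tead1 and Tead2 spread widely and overlap.

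LATS1 and LATS2 are the kinases that phosphorylate YAP and TAZ. Lats1 (chr10:7681200-7716461) stood at 16.8, 17.2 and 14.7 FPKM in control and at 13.4, 12.8 and 10.5 FPKM with IL-4, and its normalized counts of 3265, 3379 and 2834 against 2974, 2834 and 2250 overlapped. The log2 fold change of Lats1 was -0.23 ± 0.11 (SE, edgeR adjusted p = 0.150). Without IL-4 replicate 6 alone it was -0.12 (adjusted p = 0.242). Without both diverging libraries it was -0.19 and passed (edgeR adjusted p = 0.00207), and with the trend with transcript length removed it was -0.13 and passed as well (edgeR adjusted p = 0.00987). Both settings were chosen from these data. In them 25.1% and 25.4% of all tested genes were lower, against 18.4% in the main fit, so these passes are no added evidence for Lats1.

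Lats2 (chr14:57689662-57746212), itself known as a target of YAP, stood at 20.8, 21.2 and 19.1 FPKM in control and at 17.2, 17.3 and 14.7 FPKM with IL-4. Its normalized counts overlapped, at 2827, 2921 and 2548 against 2719, 2718 and 2211, and the log2 fold change was -0.12 ± 0.10 (SE, edgeR adjusted p = 0.381). It was -0.020 without IL-4 replicate 6 and -0.08 without both diverging libraries. Lats2 made up 55.7% ± 0.68 of the FPKM of both kinases in control and 57.4% ± 1.16 with IL-4 (SD, n = 3 each), and these shares overlapped (exact permutation p = 0.2, 0.233 adjusted).

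Ankrd1 and Amotl2, counted here as the target genes, were both lower, while Lats2, also a target, did not pass. Ankrd1 (chr19:36111965-36119844) stood at 6.70, 5.51 and 6.98 FPKM in control and at 3.24, 2.87 and 3.46 FPKM with IL-4, and its normalized counts were 309, 256 and 319 against 170, 151 and 177. The groups were far apart, and the log2 fold change of -0.83 ± 0.12 (SE, edgeR adjusted p = 0.000910) came to 56.3% of the control level. Amotl2 (chr9:102717091-102733418) was the most abundant of the 10 genes per length in both groups. It stood at 62.9, 62.1 and 59.0 FPKM in control and at 42.5, 44.9 and 38.3 FPKM with IL-4. Its normalized counts were 7053, 7023 and 6553 against 5430, 5731 and 4750, with a log2 fold change of -0.37 ± 0.08 (SE, edgeR adjusted p = 0.00699). Without both diverging libraries Ankrd1 changed by -0.82 and Amotl2 by -0.34, and both calls held.

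**Figure D3:**
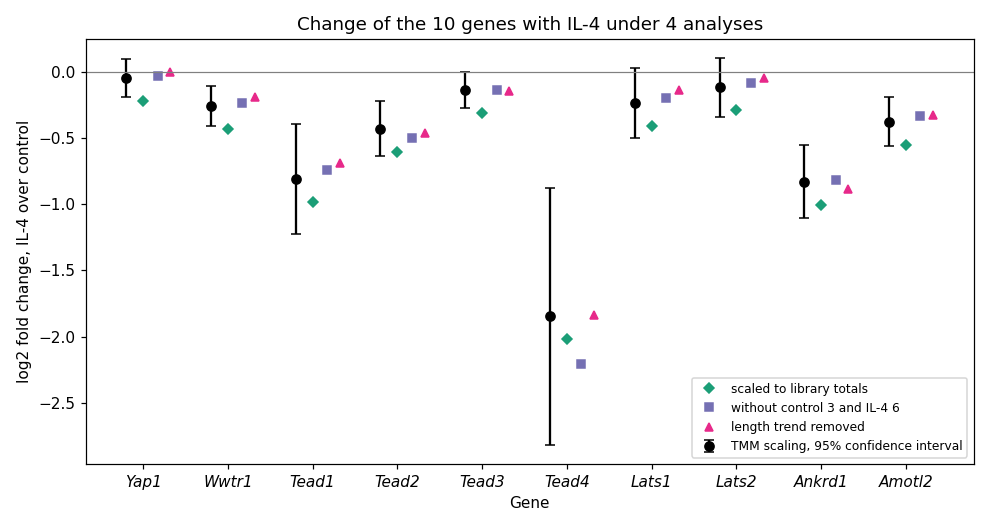
log2 fold change of each of the 10 genes, IL-4 over control, with the TMM-scaled edgeR value and its 95% confidence interval in black, and the values scaled to library totals (green diamonds), without control replicate 3 and IL-4 replicate 6 (squares) and with the trend with transcript length removed (triangles). The black intervals of Yap1, Tead3, Lats1 and Lats2 reach 0, and library totals place every gene lower than TMM does.

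The deficit of long transcripts in IL-4 replicate 6 and control replicate 3 was visible within the 10 genes. Tead1, the longest at 9616 bases, had a log2 ratio of -0.63 in IL-4 replicate 6 over replicates 4 and 5 and of -0.38 in control replicate 3 over replicates 1 and 2. Lats1, at 7222 bases, had ratios of -0.37 and -0.23. The short Ankrd1, at 1765 bases, had ratios of 0.14 and 0.17, and Tead2, at 2115 bases, of 0.21 and 0.03. With the trend removed, which was chosen after the data had been seen, Tead1 changed by -0.69, Ankrd1 by -0.88, Wwtr1 by -0.19 and Yap1 by 0.0025. The 6 calls held, and Lats1 and Tead3 (-0.15) passed as well, while 25.4% of all tested genes were lower and 25.7% higher.

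**Figure D4:**
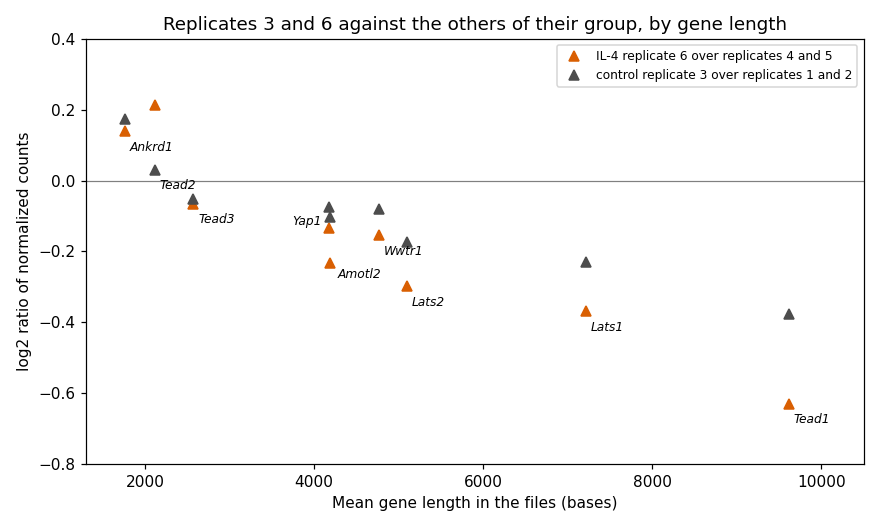
log2 ratio of normalized counts of IL-4 replicate 6 over replicates 4 and 5 (orange) and of control replicate 3 over replicates 1 and 2 (grey) against the transcript length in bases, for 9 genes, leaving out Tead4 for its few reads. The points go down from Ankrd1 and Tead2, at or above 0, to Tead1, at -0.63 and -0.38.

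Of 36 further regulators of the pathway, 34 were tested, and 8 were lower, 3 higher and 23 did not pass, with a median log2 fold change of -0.14. Over all tested genes 18.4% were lower and 19% higher, so that the count of lower regulators was near the background and that of higher ones under it. Among the lower genes were both MST kinases, Stk3 (-0.17) and Stk4 (-0.27), the kinase Taok3 (-0.25) and the TEAD cofactor Vgll3 (-0.42). The largest falls were those of Fat1, an atypical cadherin upstream of the pathway (-1.08 ± 0.24 SE), Ajuba, a LIM protein that binds LATS kinases (-0.90 ± 0.09 SE), Ptpn14, a phosphatase that holds YAP in the cytoplasm (-0.62 ± 0.18 SE), and Wwc2, a relative of KIBRA (-0.57 ± 0.17 SE). Fat1 (14627 bases) and Ptpn14 (10766 bases) are long genes, and for both the diverging library was the lowest of each group. Fat1 stood at 21157, 24138 and 15682 normalized counts in control and at 11578, 11028 and 6292 with IL-4. The part of the deficit of long transcripts in these falls was not tested. The rises were those of Amotl1, an angiomotin relative of Amotl2 (0.61 ± 0.16 SE), Limd1, a LIM protein like Ajuba (0.48 ± 0.07 SE), and Rassf1, a scaffold of the MST kinases (0.41 ± 0.08 SE). The genes that moved thus include activators and inhibitors of YAP in both directions. The adaptor Sav1 (0.12) and Nf2 (-0.08) did not pass. Without control replicate 1 or 2 only 3 regulators were lower, against 13.5% and 13.9% of all tested genes. Without both diverging libraries 14 were lower and 7 higher, against 25.1% and 25.5% of all tested genes.

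Amotl1 and Amotl2 thus differed in sign. Amotl1 stood at 4232, 4674 and 3494 normalized counts in control and 7140, 6941 and 4878 with IL-4. These groups did not overlap, and IL-4 replicate 6 was the lowest of its group for both genes.

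Of 19 further YAP target genes, all tested, 7 were lower, 3 higher and 9 did not pass, beside 18.4% lower and 19% higher over all tested genes, and their median log2 fold change was -0.15. Together with Ankrd1, Amotl2 and Lats2 they form a list of YAP and TAZ targets known from cancer cells. Whether YAP drives them in APs was not tested. The largest falls were those of Ctgf and Cyr61, which encode secreted matricellular proteins and are the targets most often used to read YAP activity. Ctgf stood at 13807, 13561 and 12625 normalized counts in control and at 4814, 4607 and 4838 with IL-4 (log2 fold change -1.49 ± 0.06 SE, edgeR adjusted p = 1.14e-06). Cyr61 stood at 10044, 10199 and 9922 against 4835, 4899 and 4998 (-1.03 ± 0.05 SE, edgeR adjusted p = 3.12e-06). For both genes the 3 libraries of a group lay close together and far from the other group, the diverging libraries included. Ptpn14, a target as well as a regulator, and Nuak2, a kinase (-0.49 ± 0.10 SE), followed. Myof (-0.43), Asap1 (-0.42) and Igfbp3 (-0.48) were the other lower genes.

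The rises among the targets were those of Gadd45a, a stress-response gene (1.16 ± 0.11 SE), Fjx1, the relative of fly four-jointed, which acts on Fat cadherins (0.73 ± 0.08 SE), and Foxf2, a forkhead factor (2.78 ± 0.20 SE) that fell outside the rule for naming genes with its mean of 43.9 normalized counts and was named after its values were seen. Axl (0.15), F3 (0.10) and Ccdc80 (0.01) did not pass. Without control replicate 1 or 2, 4 targets were lower, against 13.5% and 13.9% of all tested genes. All 8 contractile markers, genes of the smooth muscle and myofibroblast cytoskeleton, were lower as well, with log2 fold changes of -0.60 for Cald1 to -1.98 for Cnn1, and their summed level was 117136 to 123441 normalized counts in control and 53768 to 56033 with IL-4. The part of this shift, and of the lower macrophage markers, in the values of the targets was not tested.

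**Figure D5:**
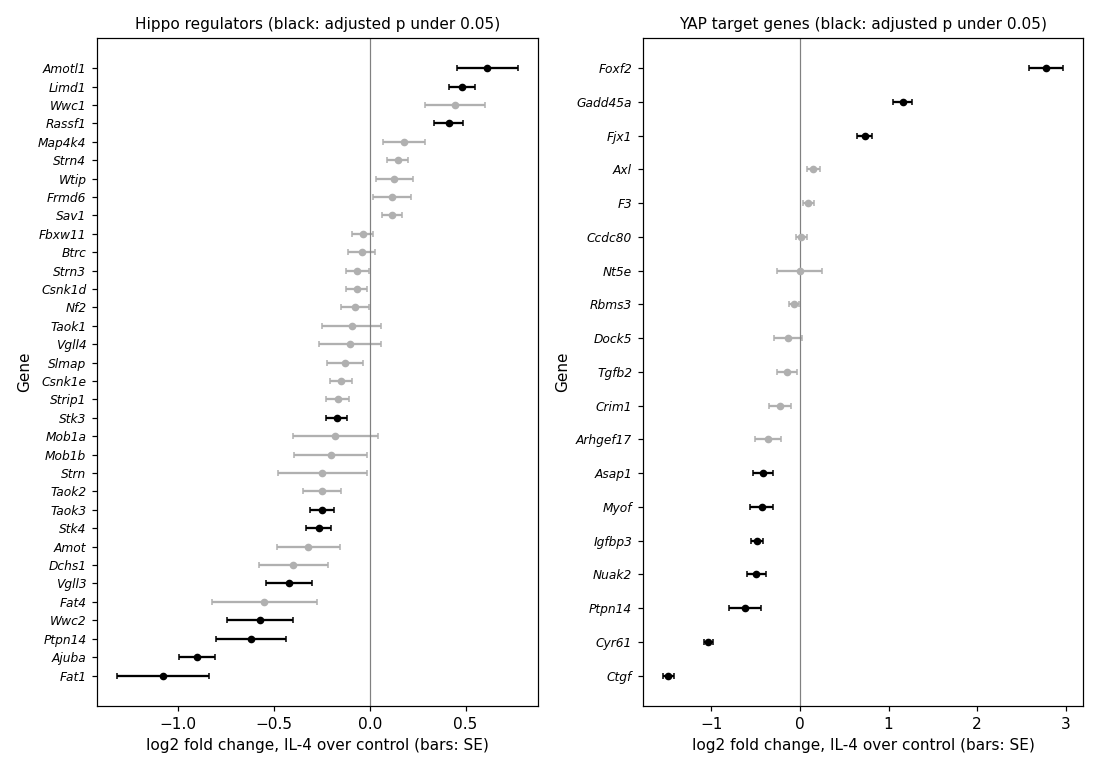
log2 fold change, IL-4 over control, of 34 tested regulators of the Hippo pathway (left) and 19 YAP target genes (right), sorted, with bars for the SE and black points for an adjusted p under 0.05 in edgeR. Fat1 and Ajuba lie lowest and Amotl1 highest among the regulators, and Ctgf and Cyr61 lie lowest and Foxf2 highest among the targets.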

How the data were processed

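mRNA-seq of 3 control and 3 IL-4 libraries was used. The small RNA libraries were not analysed here. As the authors describe, poly-A RNA was sequenced on a BGISEQ-500, reads were filtered with SOAPnuke and mapped to mm10 with HISAT, and gene levels were computed with Bowtie2 and RSEM, whose versions are not given in the sources used here. The submitters' processing notes also name StringTie. The deposited files hold, per gene, expected counts without any normalization, the FPKM, in which the authors took transcript length and library size into account, and the transcript length. No source used here says that reads were counted by strand. A gene not listed in a library was taken as 0. The only row without a gene name, at most 0.000225% of counts, was left out.

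Groups came from the sample labels. Rounded expected counts entered edgeR 4.0.16 (R 4.3.3, limma 3.58.1) after filterByExpr with a minimum count of 10 and a total of at least 15, under TMM scaling. The quasi-likelihood test of edgeR compared the groups, with p-values adjusted after Benjamini and Hochberg over 14009 genes. For normalized counts, each count was divided by its library's TMM-scaled size and brought to the mean size. Shares of FPKM were compared with exact two-sided permutation tests (scipy 1.17.1). Promoter windows, miRNAs and 3′ UTRs came from RefSeq on GRCm38.p6, the assembly of mm10.

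The alternatives were DESeq2 1.42.0, upper-quartile scaling, library totals, no filter, limma on log2(FPKM + 1) and log2(FPKM + 0.1), each library left out in turn and 2 libraries left out together. The 2 libraries left out together were chosen by their divergence in these data. Removal of a trend with transcript length was added after the data had been seen. Named are all 10 genes and, from the lists of regulators and targets, the 4 largest rises and falls at an adjusted p under 0.05 with a mean of at least 100 normalized counts; other genes of these lists were named after their values were seen. The 10 genes and the lists were chosen with earlier results of these data known. Depth per library limits Tead4, which had 5 to 32 reads.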

Additional observations from a re-analysis of the deposited data

How the results depend on the processing

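Among the 10 genes, Wwtr1 lost its call without control replicate 1 or 2 (range over the libraries left out -0.29 to -0.20), and the calls of Tead1, Tead2, Tead4, Ankrd1 and Amotl2 held under every alternative, although Tead4 measured -0.28 and -1.17 by limma on log2(FPKM + 1) and log2(FPKM + 0.1). Yap1 turned sign at 0.0021 without IL-4 replicate 6 (range -0.072 to 0.0021) and at 0.0025 with the trend with transcript length removed. Scaled to library totals, by limma on log2(FPKM + 1) and by limma on log2(FPKM + 0.1), 10, 10 and 10 of the genes were lower, with newly called log2 fold changes for Yap1 of -0.22, -0.22 and -0.22, for Tead3 of -0.31, -0.29 and -0.30, for Lats1 of -0.41, -0.39 and -0.41 and for Lats2 of -0.29, -0.30 and -0.31. In the same order, 4963, 4916 and 4904 tested genes were lower (2582 by TMM) and 1704, 1697 and 1694 higher (2663 by TMM), and 20, 18 and 18 regulators were lower (8 by TMM). With library totals, log2(FPKM + 1) and log2(FPKM + 0.1), 12, 11 and 10 YAP target genes were lower (7 by TMM). These scalings set no common level for the bulk of genes, whose median then lies at -0.17 to -0.13.

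Without control replicate 3 and IL-4 replicate 6 together, Lats1 passed at -0.19, and 14 regulators were lower and 7 higher, while 3520 tested genes were lower and 3576 higher. With the trend with length removed, Lats1 passed at -0.13 and Tead3 at -0.15, and 14 regulators were lower and 8 higher, while 3555 tested genes (25.4%) were lower and 3602 (25.7%) higher. With single libraries left out, 3 to 10 regulators were lower and 2 to 5 higher, and 4 to 7 targets were lower. Over all tested genes 1911 to 3014 were then lower and 2017 to 3199 higher. The cause was not tested. By expected counts in place of FPKM the share of Tead3 differed by 5.15 and that of Tead4 by -0.113 percentage points, because expected counts weight long transcripts more. GGAATGT was in the promoters of 3 of the 8 genes with a window, against 4.47% of all genes with a window. A seed match followed by A was in the 3′ UTR of 4 of the 10 genes, against 16.4% of tested genes with a 3′ UTR. A match to bases 2 to 7 alone was in 9 of the 10, against 71.7%. DESeq2 called Wwtr1, Tead1, Tead2, Tead4, Ankrd1 and Amotl2 lower.

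No paired analysis was possible from the labels because the control libraries are numbered 1 to 3 and the IL-4 libraries 4 to 6. Such numbers name no pairs, yet they do not exclude them. No source used here says whether cells of the same preparation were divided between the groups. Control replicate 3 and IL-4 replicate 6, the last of each group, both held fewer reads of long transcripts. Their median log2 ratios for genes of at least 6000 bases were -0.19 and -0.40. Pairing of the libraries by their order was not tested.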

Other observations

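For 4 of the genes, the other genes with the most similar levels over the 6 libraries were sought among 11418 genes with a mean of at least 100 normalized counts, by Pearson's r of log2 normalized counts. The genes nearest to Wwtr1 were Amotl2 (r = 0.999), Galnt10 and Spry2, and those nearest to Amotl2 were Spry2 (r = 0.999), Wwtr1 and Ghr, so that the coactivator gene Wwtr1 and the target gene Amotl2 appeared on each other's list. Spry2, an inhibitor of receptor tyrosine kinase signalling, was on both lists and had a log2 fold change of -0.23. The growth hormone receptor gene Ghr changed by -0.28. Nearest to Tead1 were Igf1r, the receptor of insulin-like growth factor 1 (-0.52), Abcc1, a transporter (-0.34), and Hif1a, the oxygen-regulated transcription factor (-0.35). Nearest to Yap1 were Brd8, Bicd2 and Prr12, none of which passed the test in edgeR (adjusted p = 0.561, 0.470 and 0.514). With 6 libraries such values are common, and 219 genes for Yap1, 623 for Wwtr1, 714 for Tead1 and 727 for Amotl2 had r of at least 0.95. The points share the group difference and, for long genes such as Tead1, the deficit of long transcripts in 2 libraries.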
